A study of Mus musculus with 32 samples.

Results

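Nfia, Nfib, Nfic and Nfix encode the nuclear factor I proteins, and Zbtb20 encodes a zinc-finger repressor. The rows with these 5 symbols were taken from a table of 32285 genes, each symbol matched 1 row, and their RNA was followed through cortical development. The tissue was the dorsal telencephalon, the embryonic wall from which the cerebral cortex forms, of C57BL/6J mouse embryos. Wild type embryos (WT) were set beside Chd8+/- littermates (called het below), which carry a heterozygous loss of Chd8, a gene for a chromatin remodeller. Embryos were taken at 4 stages counted in embryonic days, the earliest E12.5, then E14.5, then E16.0 and last E17.5, with 4 WT and 4 het libraries per stage, so that 32 libraries fell into 8 groups. A WT and a het embryo of 1 litter and sex formed a pair, 16 in all, and the 4 of a stage are named M1, M2 (male), F1 and F2 (female), and each embryo was processed individually. Per the labels, the medial wall was cut away so that the future hippocampus was avoided. No other allele, agent or treatment is named for any group, and the labels do not say which part of Chd8 was altered.

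Nuclear factor I proteins bind DNA as dimers, and the 4 proteins can pair with themselves and with one another. In the developing cortex Nfia, Nfib and Nfix are known for moving radial glia from self-renewal towards differentiation, and Nfia and Nfib for the onset of glial gene expression. Nfic is best known for the growth of tooth roots. Zbtb20 is known as a repressor that sets the identity of hippocampal neurons, and in cortical progenitors it is linked to late-born upper-layer neurons and to astrocytes.

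In build mm10, the build named in the submitters' processing notes, Nfia (ENSMUSG00000028565) lies on the forward strand of chromosome 4 from 97772734 to 98118874, and Nfib (ENSMUSG00000008575) on the reverse strand of chromosome 4 from 82290173 to 82705750. Nfic (ENSMUSG00000055053) lies on the reverse strand of chromosome 10 from 81396186 to 81455635, and Nfix (ENSMUSG00000001911) on the reverse strand of chromosome 8 from 84699876 to 84800344. Zbtb20 (ENSMUSG00000022708) spans 42875881 to 43642602 on the forward strand of chromosome 16. All 5 are protein-coding. To show how alike the 4 family members are, and why their counts can still be told apart, a stretch of 30 codons of exon 2, which codes for much of the DNA-binding domain, is given for each. It was picked as the stretch of the exon with the most residues shared by all 4. It is read 5′ to 3′ from the GENCODE M21 transcripts, with coordinates in mm10 and each gene on its own strand, and capitals mark bases that differ from Nfia.
Nfia, chr4:97783403-97783492: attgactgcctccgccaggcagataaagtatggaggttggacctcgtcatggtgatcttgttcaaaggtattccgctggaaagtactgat
Nfib, chr4:82498359-82498448: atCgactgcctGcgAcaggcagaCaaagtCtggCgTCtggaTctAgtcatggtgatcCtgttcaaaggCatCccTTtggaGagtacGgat
Nfic, chr10:81420388-81420477: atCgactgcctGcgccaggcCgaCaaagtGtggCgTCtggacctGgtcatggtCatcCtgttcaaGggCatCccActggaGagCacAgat
Nfix, chr8:84771905-84771994: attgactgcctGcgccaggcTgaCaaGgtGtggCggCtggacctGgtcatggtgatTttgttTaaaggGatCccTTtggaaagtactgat
All 30 codons gave the same residue in the 4 genes, yet 66 of the 90 bases were shared by all 4, and Nfib, Nfic and Nfix differed from Nfia at 17, 18 and 14 bases. Over the whole exon, pairs of members shared 75.8% to 82.0% of bases and 87.0% to 93.2% of residues. The libraries read the 3′ end of a transcript, and 0% of the 31-base words in the last 500 bases of any of the 4 genes' transcripts occurred in another of them.

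The count of a gene that overlaps another on the opposite strand depends on whether strand was used, and the strand setting of the counting is not given in the sources used here. Nfia overlaps E130114P18Rik (104226 UMIs against 293247 for Nfia over the retained cells), and Nfib overlaps Gm11266 (30806 against 943362). Nfix overlaps Lyl1 (1365) and G430095P16Rik (2161), beside 395061 UMIs of its own. A UMI is a tag given to each RNA molecule at capture, and PCR copies of 1 molecule are counted a single time.

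After filters, 138226 cells were retained, 2399 to 6951 per library, from libraries of 14710694 to 66499864 UMIs. Of 126207 distinct barcode sequences, 11332 (8.98%) occurred in more than 1 library. Cells were placed in classes by at least 1 UMI of a marker: Sox2 for radial glia (53896 cells), Eomes for intermediate progenitors (31635) and Neurod6 for excitatory neurons (84824). The classes overlapped: 75.1% of Eomes-detected cells also held a UMI of Neurod6 and 43.6% one of Sox2. Comparisons between classes therefore used cells with 1 of the 3 markers only (32857, 2596 and 53822 cells, called Sox2-only and so on). In microglia-marker cells, which should lack all 3, a Neurod6 UMI was found in 10.0% to 17.2% of cells, a Sox2 UMI in 4.10% to 17.3% and an Eomes UMI in 2.33% to 4.92%, at median depths of 3188 to 21038 UMIs in a library beside 3908 to 10531 in all retained cells, so some of the cells in each class may hold the marker without being of its type. In the cells with 1 marker only, the summed level of 8 radial glia genes in Sox2-only cells had a median of 3185 CPM (counts scaled to a library total of 1e+06) at E12.5 and 13539 at E17.5, and that of 7 excitatory neuron genes in Neurod6-only cells a median of 5734 to 7446 CPM over the stages. In Eomes-only cells the 7 intermediate progenitor genes summed to a median of 4365 to 6225 CPM over the stages, but at E16.0 the radial glia genes, at 5733 CPM, were close to their 5844 CPM. Each of these lists holds the marker that its own class was selected on. In Eomes-only cells the radial glia sum also lacks Sox2, which the selection removed. The sums are therefore no independent check of the classes. Erythroid genes were found in every class and stage. They were highest in Eomes-only cells at E12.5 (median 18566 CPM, 40.5 to 62780) and E14.5 (18417 CPM, 84.6 to 93921) and in Neurod6-only cells at E12.5 (8420 CPM, 45.0 to 58604), the other medians being 184 to 3886 CPM, and their part in the comparisons between classes was not tested. At E12.5 the first principal component of the library totals set het M1, F1 and F2 apart from the other 5 libraries, and these 3 were shallower (median 4769 to 6846 UMIs per Sox2-detected cell against 9262 to 11409). At E17.5 it set WT M1, het M1 and het F1 apart, which had more Malat1 (30715 to 35150 against 14631 to 23231 CPM) and are 3 of the 4 libraries of that stage whose codes in the labels have no prefix, and at E14.5 and E16.0 it separated the male from the female libraries, which at these stages also differ in the prefix of their library codes, so that sex and whatever the code stands for cannot be told apart. Chd8 itself was lower in het than in its WT partner in 15 of 16 pairs in each class, which checks the genotype labels only as far as the 3′ end of the gene reports on the altered copy.

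To ask when each gene comes on, counts were summed per library and class and scaled to CPM with TMM factors, and WT stages were compared with edgeR's quasi-likelihood test. A gene is said to be called where its p, adjusted by the Benjamini-Hochberg method over all genes tested in the class, lay under 0.05. Because the libraries read transcript ends, levels are compared between stages and cells and not between genes. In such a sum, more expressing cells and more RNA per cell cannot be told apart. Libraries of different stages share no prefix in their codes, so stage and whatever the code stands for cannot be told apart either. Each of the 5 genes had a course of its own in WT tissue. Zbtb20 was called higher at each of the 3 steps in each class, and Nfic at the first 2 steps. Nfix rose steeply from E12.5 to E14.5, and Nfib was called higher at the first step only. Nfia was called at no single step, and over the whole period it was called lower in Neurod6-detected cells. The calls numbered 12 of 15 gene and class combinations at the step to E14.5, 6 at the step to E16.0 and 5 at the step to E17.5. Over all genes tested, 37.8% were called at the step to E14.5 in Sox2-detected, 29.5% in Eomes-detected and 37% in Neurod6-detected cells. The shares were 9.03%, 6.58% and 11.1% at the step to E16.0, and 22.8%, 7.37% and 5.9% at the step to E17.5. From E12.5 to E17.5, 13 of the 15 were called, against 59.5%, 50.1% and 59.9% of all genes. Changes of the kind were thus common among all genes at the first step and over the whole period, and less common at the later steps.

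**Figure D1:**
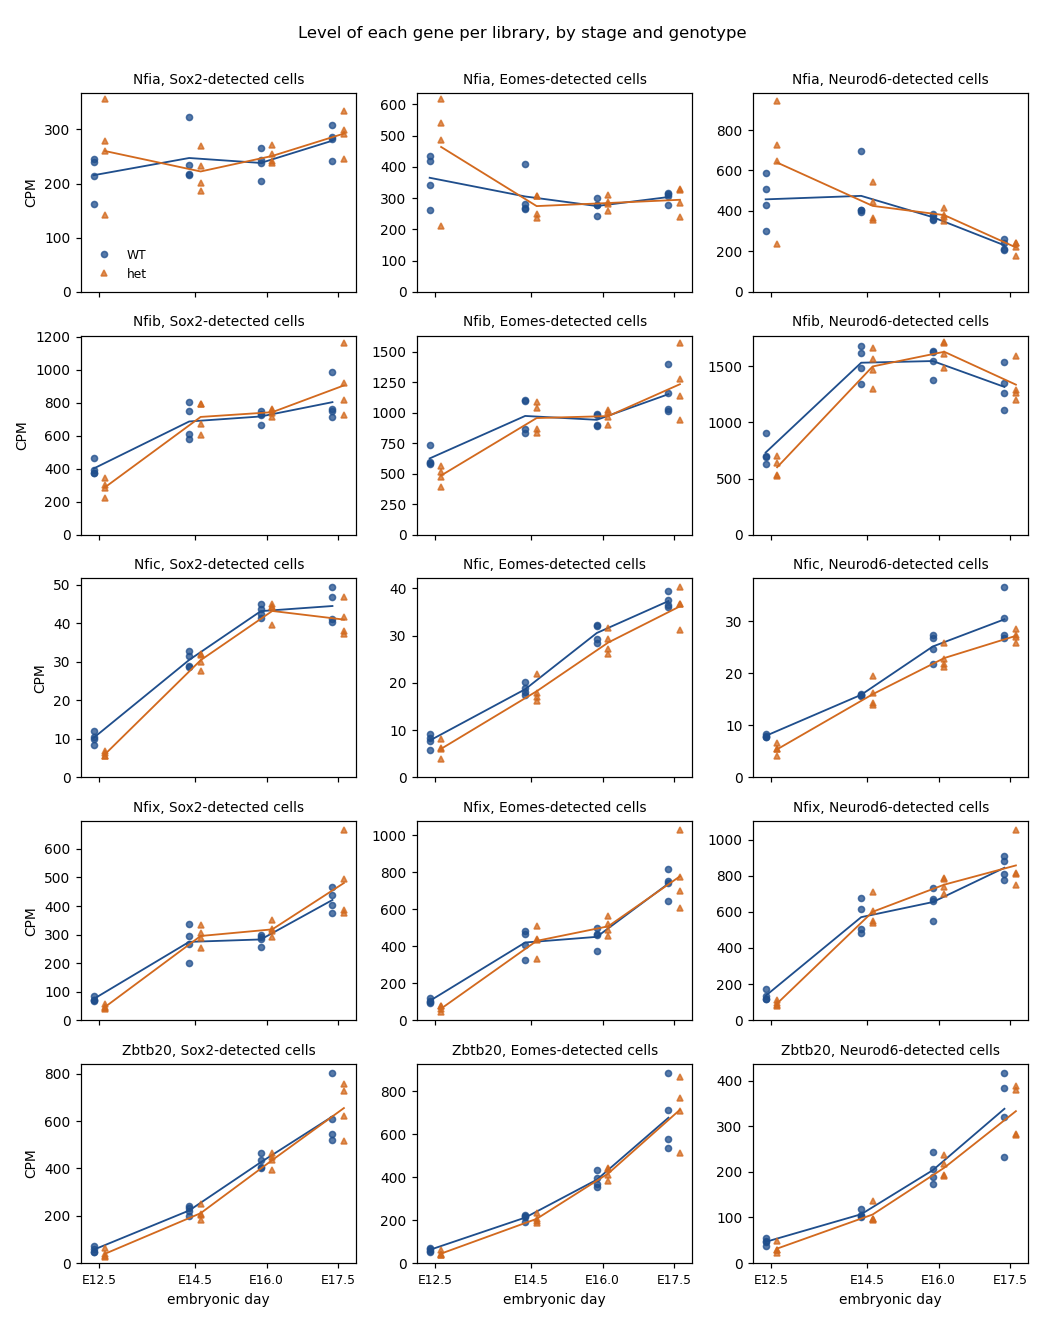
Level of each gene (CPM, linear axis from 0) against embryonic day in Sox2-, Eomes- and Neurod6-detected cells. Each point is a library (blue circles WT, orange triangles het, 4 of each per stage) and lines join the group means. Zbtb20 climbs over all 4 stages, Nfix mostly between E12.5 and E14.5, and Nfia falls away in Neurod6-detected cells at E17.5.

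Zbtb20, the repressor, had the largest rise of the 5 between E12.5 and E17.5. In Sox2-detected WT cells its level in pairs M1, M2, F1 and F2 was 73.2, 47.2, 58.7 and 46.4 CPM at E12.5 (56.4 ± 12.5, SD, n = 4), and 803, 610, 519 and 547 CPM at E17.5 (620 ± 128). The groups of any 2 neighbouring stages did not overlap, the means between being 222 ± 18.2 CPM at E14.5 and 426 ± 29.99 CPM at E16.0. The rise over the whole period was 3.46 on the log2 scale (SE 0.20, adjusted p = 5.03e-15). As a share of the E17.5 mean, Zbtb20 stood at 9.10% at E12.5, 35.8% at E14.5 and 68.8% at E16.0. In Eomes-detected cells the course was nearly the same: means of 61.3, 212, 388 and 676 CPM, and a rise of 3.46 (SE 0.16). In Neurod6-detected cells the levels were lower, with means of 46.4, 107, 204 and 338 CPM, and the rise was 7.28-fold (log2 2.86, SE 0.19). The last step was the least secure. It was 0.54 (SE 0.18, adjusted p = 0.0282) in Sox2-detected cells, and was no longer called without the 3 E17.5 libraries that stood apart (0.38, adjusted p = 0.126), without WT M1 of E17.5 alone (0.39, adjusted p = 0.139), in Sox2-only cells (0.44, adjusted p = 0.0806) or without WT M1 or M2 of E16.0 (0.51 each, adjusted p = 0.0773 and 0.0752). In Neurod6-detected cells this step was 0.73 (SE 0.18, adjusted p = 0.0131), the 4 WT values at E17.5 (383, 417, 233 and 320 CPM) overlapped those at E16.0 (190, 174, 207 and 244 CPM), and the call was lost without WT M2 of E16.0 (0.68, adjusted p = 0.0562) or of E17.5 (0.62, adjusted p = 0.0534). In Neurod6-only cells the first step was 0.70 and the last 1.29.

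Nfix, which is linked to the output of intermediate progenitors and to the timing of neuron production, rose most at the first step. In Sox2-detected WT cells it was 86.1, 67.2, 72.5 and 72.1 CPM at E12.5 and 336, 295, 200 and 266 CPM at E14.5, in the same pair order. Every E14.5 library lay above every E12.5 library, with a log2 difference of 1.88 (SE 0.15, adjusted p = 7.08e-11). The same step was 2.01 (SE 0.16) in Eomes-detected and 2.08 (SE 0.14) in Neurod6-detected cells, where means went from 104 to 421 CPM and from 135 to 570 CPM. From E14.5 to E16.0 Nfix was not called in any class. At the last step it rose by 0.57 (SE 0.15, adjusted p = 0.00603) in Sox2-detected and by 0.71 (SE 0.16, adjusted p = 0.00461) in Eomes-detected cells, and was not called in Neurod6-detected cells (654 ± 76.5 and 844 ± 62.1 CPM, n = 4 each). The last step in Sox2-detected cells was not seen once cells with a UMI of Eomes or Neurod6 were taken out: in Sox2-only cells it was 0.09 (adjusted p = 0.48), and the rise over the whole period was 1.64 beside 2.50 in all Sox2-detected cells. Shares of other cell types differed there too: from E16.0 to E17.5 interneuron markers went from 11.3% to 38.9% of Sox2-only cells and oligodendrocyte-lineage markers from 1.44% to 16.9%. Their part in the Sox2-only value was not tested, and with cells of other types taken out of all Sox2-detected cells the step was 0.85 (adjusted p = 0.000211).

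Nfic, the member with the fewest UMIs in these cells, was at 12.2, 8.46, 9.99 and 10.5 CPM in Sox2-detected WT cells at E12.5. At E14.5 it was at 31.5, 32.7, 28.7 and 29.0 CPM, again with no overlap. That step was 1.57 (SE 0.10, adjusted p = 3.51e-13), and the next, to 43.2 ± 1.58 CPM at E16.0, was 0.50 (SE 0.10, adjusted p = 0.00101). By E16.0 the level was 97.0% of that at E17.5 in Sox2-detected cells, while it was 81.9% in Eomes-detected and 82.8% in Neurod6-detected cells. The last step was not called in any class, though in Eomes-detected WT cells it was 1.22-fold without overlap of the groups. The rise over the whole period was 4.33-fold in Sox2-detected, 4.77-fold in Eomes-detected and 3.798-fold in Neurod6-detected cells.

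Nfib, the member with the most UMIs, went from 465, 372, 390 and 375 CPM at E12.5 to 802, 752, 582 and 608 CPM at E14.5 in Sox2-detected WT cells. The first step was 0.78 (SE 0.14, adjusted p = 4.77e-05) there, 0.64 (SE 0.14; 0.41 in cells with at least 2 UMIs of Eomes) in Eomes-detected and 1.07 (SE 0.13) in Neurod6-detected cells, and the groups did not overlap in any class. No later step was called, though in Eomes-detected WT cells the means rose 1.22-fold from E16.0 to E17.5 without overlap of the groups. In Neurod6-detected cells the highest mean was at E16.0 (1547 ± 120 CPM), and that at E17.5 was 1316 ± 179 CPM. Nfib at E12.5 already stood at 49.9% of its E17.5 level in Sox2-detected cells, a larger share than for Nfic (23.1%), Nfix (17.7%) or Zbtb20.

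Nfia, known for its part in the start of astrocyte formation, was the exception. In Sox2-detected WT cells it was 246, 163, 213 and 240 CPM at E12.5 and 282, 285, 241 and 308 CPM at E17.5, ranges that overlap, and no step was called. In Neurod6-detected WT cells it went from 590, 302, 430 and 507 CPM at E12.5 to 211, 241, 207 and 261 CPM at E17.5, and every late value lay below every early one. That fall was 0.99 on the log2 scale: the difference was -0.99 (SE 0.25, adjusted p = 0.00114), and -1.65 in Neurod6-only cells.

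In Eomes-only cells, of which the thinnest library held 14, 5 calls of steps in Eomes-detected cells were lost: Nfib (0.64 in Eomes-detected and 0.46 in Eomes-only cells, adjusted p = 0.208 in the latter) and Nfic (1.25 and 1.21, adjusted p = 0.0992) at the step to E14.5, Nfic (0.71 and 0.56, adjusted p = 0.703) and Zbtb20 (0.87 and 0.84, adjusted p = 0.169) at the step to E16.0, and Nfix (0.71 and 0.54, adjusted p = 0.182) at the step to E17.5. Calls over all genes were fewer as well in these smaller sums, 406 in place of 3865, 5 in place of 862 and 72 in place of 965 at the 3 steps.

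To place the genes along the path from progenitor to neuron, Sox2-only, Eomes-only and Neurod6-only cells of the same libraries were compared within each stage, genotypes together (n = 8 libraries per class and stage, library as a block). Nfib and Nfix were higher, and Zbtb20 lower, in Neurod6-only than in Eomes-only cells at every stage, each in 8 of 8 libraries. Nfia was higher in the neurons at the first 3 stages and lower at E17.5. Between Sox2-only and Eomes-only cells none of the 5 was called at E12.5, and the called differences at later stages ran from -0.67 (Nfic at E14.5) to 0.74 (Nfix at E17.5). Of 10 gene and contrast combinations, 4 were called at E12.5, 7 at E14.5, 9 at E16.0 and 6 at E17.5. The share of all genes called between Eomes-only and Sox2-only cells was 47.9%, 27.2%, 38.1% and 18.5% at these stages, and between Neurod6-only and Eomes-only cells 58.8%, 57%, 70.2% and 47.7%, so a call in these contrasts was common.

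**Figure D2:**
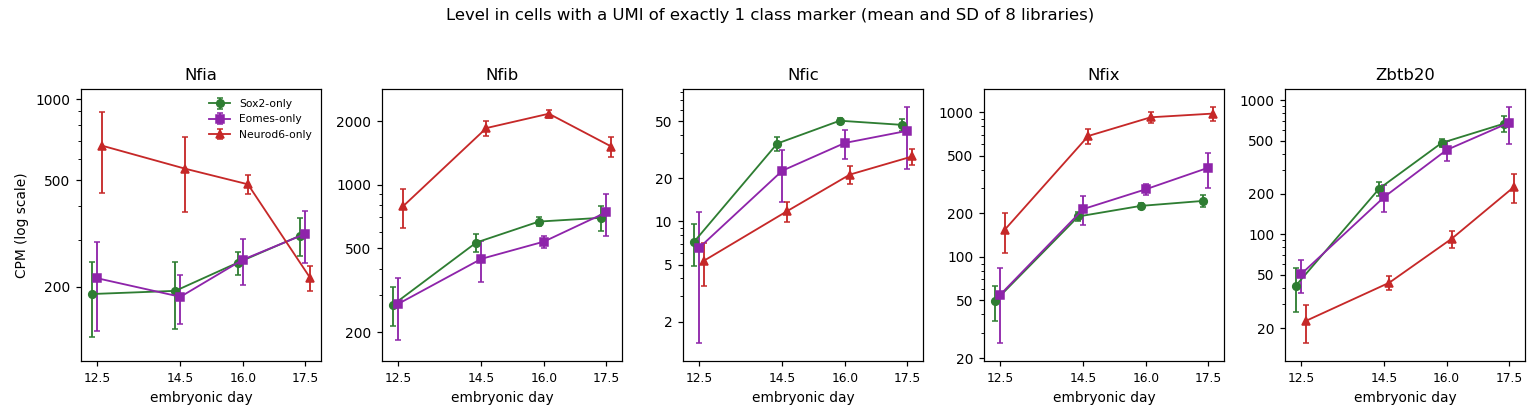
Mean and SD over 8 libraries of each gene's level (CPM, log axis) in Sox2-only, Eomes-only and Neurod6-only cells at each stage. Zbtb20 and Nfic step down into Neurod6-only cells, Nfib and Nfix step up, and the order for Nfia turns between E16.0 and E17.5.

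Zbtb20 marked the progenitor side. At E16.0 its level in Neurod6-only cells ran from 71.4 to 112 CPM with a median of 92.3, below the 315 to 513 CPM (median 420) of Eomes-only and the 435 to 514 CPM (median 488) of Sox2-only cells. The neuron to progenitor differences were -1.16, -2.12, -2.21 and -1.59 at the 4 stages in order (SE 0.16, 0.12, 0.07 and 0.11), and the adjusted p at E16.0 was 4.86e-21. Nfic went the same way from E14.5 on, with -0.93 (SE 0.24), -0.75 (SE 0.14) and -0.69 (SE 0.18), and was not called at E12.5. Its Eomes-only values rest on 0 to 36 UMIs per library.

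Nfib was higher in neurons by 1.55, 2.06, 2.01 and 1.06 at the 4 stages in order (SE 0.08, 0.07, 0.04 and 0.08). At E16.0 its Neurod6-only values ran from 2027 to 2334 CPM (median 2190), against 503 to 608 CPM (median 528) in Eomes-only cells. Nfix was higher by 1.48 (SE 0.13), 1.66 (SE 0.08), 1.66 (SE 0.05) and 1.27 (SE 0.09) at the 4 stages. It was also the only one of the 5 called higher in Eomes-only than in Sox2-only cells, by 0.38 (SE 0.05) at E16.0 and, by the last stage, 0.74 (SE 0.09, adjusted p = 7.32e-07). At E17.5 interneuron markers were found in 38.9% of Sox2-only and 5.06% of Eomes-only cells and oligodendrocyte-lineage markers in 16.9% and 3.797%. With cells of other types taken out, the Nfix difference was 0.64 (adjusted p = 8.35e-06). For Nfia the neuron to progenitor difference was 1.62 (SE 0.09), 1.56 (SE 0.07) and 0.95 (SE 0.07) at the first 3 stages and -0.55 (SE 0.09, adjusted p = 1.09e-05) at E17.5, the sign holding in 8 of 8 libraries each time. Among Neurod6-only cells at E12.5, 13.5% carried Cajal-Retzius markers. With cells of other types taken out, the E12.5 differences between neurons and Eomes-only cells were 1.64 for Nfia, 1.52 for Nfib and 1.29 for Nfix.

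Between Eomes-only and Sox2-only cells the other calls were negative: Nfic at E14.5 (-0.67, SE 0.21) and E16.0 (-0.51, SE 0.13), Nfib at E14.5 (-0.26, SE 0.07) and E16.0 (-0.31, SE 0.04), and Zbtb20 at E16.0 (-0.18, SE 0.06). That of Nfic at E14.5 was lost without het M2 (-0.49, adjusted p = 0.0634). Those of Nfib and Zbtb20 depended on how cells were classed: with each cell given to the marker with most UMIs, Nfib was -0.06 (E14.5) and -0.05 (E16.0), and Zbtb20 at E16.0 was -0.04, none called. The Nfib call at E14.5 was also lost with no library block (-0.24, adjusted p = 0.113), and was -0.41 with cells of other types taken out, while that of Zbtb20 was -0.29 without WT F1 of E16.0. The same classing by most UMIs kept other calls but moved their size. Between Eomes and Sox2 cells it gave 0.63 and 1.23 for Nfix at E16.0 and E17.5 and -1.03 for Nfic at E14.5. Between neurons and Eomes cells it gave -0.39, -0.44 and -0.46 for Nfic at the last 3 stages, 1.02 for Nfib and -0.60 for Zbtb20 at E12.5, and 0.67 for Nfix at E17.5.

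The change from E12.5 to E17.5 was itself compared between neurons and progenitors. In this fit 4 of the 5 genes were called, against 57.2% of all genes. Nfia stood out in size: from E12.5 to E17.5 its mean went from 188 ± 58.5 to 310.5 ± 50.04 CPM in Sox2-only and from 671 ± 226 to 215 ± 22.9 CPM in Neurod6-only cells (SD, n = 8), a difference between the 2 changes of -2.21 on the log2 scale (SE 0.11, adjusted p = 3.43e-20). Zbtb20 gained less in neurons (-0.57, SE 0.16, adjusted p = 0.00237), although it went from 22.6 to 226 CPM there and from 41.4 to 670 CPM in Sox2-only cells. Nfix gained more in neurons (0.49, SE 0.12, adjusted p = 0.000763). Nfib gained slightly less (-0.30, SE 0.10, adjusted p = 0.0135), a call lost with no library block (-0.34, adjusted p = 0.098). Nfic was not called. Sox2-only cells at E17.5 also hold other cell types: 38.9% carried interneuron markers and 16.9% markers of the oligodendrocyte lineage. With cells of other types taken out, the differences were -2.66 for Nfia, -1.07 for Zbtb20, -0.55 for Nfib and 0.52 for Nfix, so that of Zbtb20 and of Nfib was over 1.5 times as large.

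To compare neurons of different layers, Neurod6-detected cells were divided into those with a UMI of Cux1 or Cux2, which mark upper layers, and none of Fezf2, Tle4 or Foxp2, and those with a UMI of the latter, which mark deep layers, and none of Cux1 or Cux2. Zbtb20 was higher, and Nfia, Nfib and Nfix lower, in Cux-detected than in deep-marker cells at E14.5 and E16.0, each in 8 of 8 libraries. By E17.5 Nfia alone kept a difference in 8 of 8 libraries. The counts called were 5 of 5 at E14.5, 4 at E16.0 and 2 at E17.5, against 51.3%, 55.7% and 31.3% of all genes.

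At E14.5 Zbtb20 ran from 140 to 225 CPM (median 164) in Cux-detected and from 47.7 to 62.6 CPM (median 53.3) in deep-marker neurons, with no overlap and a difference of 1.64 (SE 0.07, adjusted p = 4.36e-12). At E16.0 the difference was 0.89 (SE 0.06), the highest deep-marker library (190.05 CPM) lying just above the lowest Cux-detected one (189 CPM). At E17.5 it was not called, with means of 299 ± 53.0 and 360 ± 149 CPM (n = 8). Nfix went from a difference of -1.46 (SE 0.06) at E14.5 to -0.71 (SE 0.04) at E16.0, then to 0.14 (SE 0.05, adjusted p = 0.0382) by E17.5, and its Cux-detected mean from 275 to 590 and then 909 CPM. The last of these was positive in 6 of 8 libraries only. It was lost with DESeq2 (0.13, adjusted p = 0.0928), with no library block (0.12, adjusted p = 0.46), without the 3 E17.5 libraries that stood apart (0.12, adjusted p = 0.261), and without WT M1, WT F1, het F1 or het F2 of E17.5, each left out alone (0.11 to 0.13, adjusted p = 0.0733 to 0.137).

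Nfib differed by -0.78 (SE 0.03) at E14.5 and -0.80 (SE 0.04) at E16.0, with Cux-detected means of 1052 and 1363 CPM and deep-marker means of 1811 and 2367 CPM, and was not called at E17.5 (1366 and 1506 CPM). Nfia differed by -1.07 (SE 0.05), -1.25 (SE 0.04) and -0.61 (SE 0.05, adjusted p = 1.38e-07) at the 3 stages. Its deep-marker mean went from 573 and 620 CPM to 296 CPM, while the Cux-detected mean went from 275 and 260 to 196 CPM. Nfic was called at E14.5 only, by 0.46 (SE 0.09). The divided cells differed in progenitor markers as well: at E14.5 a Sox2 UMI was found in 23.8% of Cux-detected and 14.2% of deep-marker cells and an Eomes UMI in 33.7% and 19.4%, while at E17.5 the order was the opposite (7.44% and 11.5% for Sox2, 12.5% and 24.2% for Eomes). Their part in the differences was not tested.

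**Figure D3:**
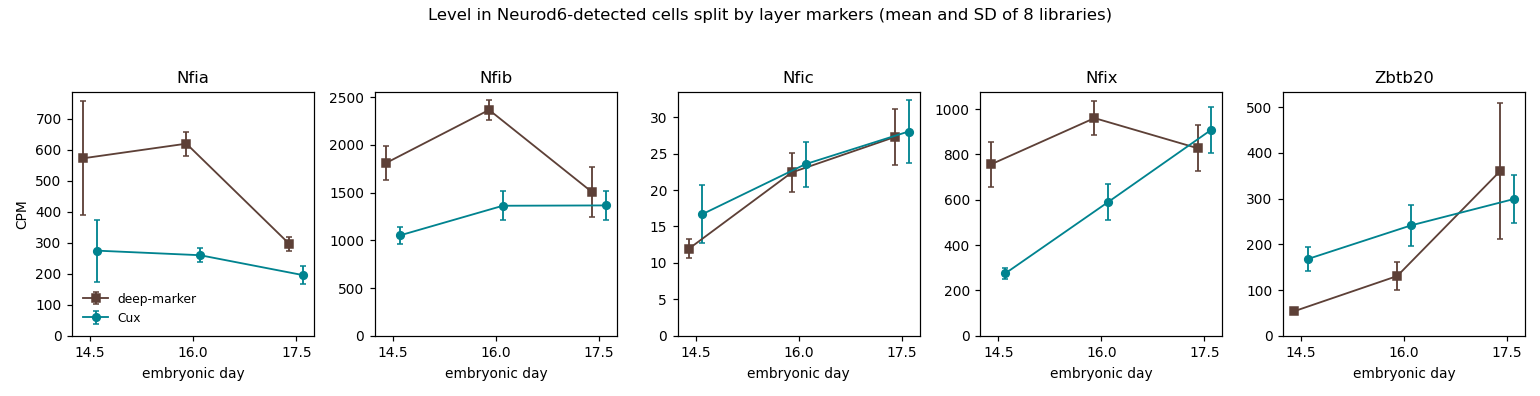
Mean and SD over 8 libraries of each gene's level (CPM) in deep-marker and Cux-detected Neurod6 cells from E14.5 to E17.5. The means of Zbtb20 and Nfix draw together by E17.5, and Nfia in deep-marker cells goes from 620 CPM at E16.0 to 296 CPM.

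Among Sox2-only cells, those with a UMI of Mki67 or Top2a, genes of dividing cells, were compared with the rest over all 32 libraries. All 5 genes were called higher in the cycling cells, against 62.7% of all genes called in either direction (3944 of 12710 genes called higher). The differences were modest: 0.41 (SE 0.03) for Nfia, 0.33 (SE 0.02) for Nfib, 0.43 (SE 0.05) for Nfic, 0.28 (SE 0.03) for Nfix and 0.15 (SE 0.03) for Zbtb20. Nfia was higher in 32 of 32 libraries, Nfib in 31, Nfix in 29, Nfic in 28 and Zbtb20 in 24. At E17.5, for example, the Nfia mean was 343 ± 45.1 CPM in cycling and 236 ± 51.1 CPM in other cells (n = 8). Cycling cells were deeper: at E17.5 their library medians were 6431 to 10072 UMIs, against 3234 to 4208 in non-cycling cells. The part of depth in the differences was not tested. Cell types other than radial glia were unevenly divided: interneuron markers were found in 53.6% of non-cycling and 18.3% of cycling cells at E17.5. With cells of other types taken out, Zbtb20 was no longer called (0.05, adjusted p = 0.102), nor was it with no library block (0.14, adjusted p = 0.114), while the other 4 genes were called under both. With those cells out their differences were smaller: 0.17 for Nfia, 0.21 for Nfib, 0.27 for Nfic and 0.14 for Nfix.

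To ask whether loss of a Chd8 copy alters these genes, het and WT libraries were compared within each stage and class. At E12.5, 3 of 15 combinations were called, all lower in het: Nfic and Nfix in Sox2-detected cells and Nfix in Eomes-detected cells. Of all genes, 0.595% were called in Sox2-detected, 0.367% in Eomes-detected and 0.00686% in Neurod6-detected cells. An unadjusted p under 0.05 was reached by 4 of the 5 genes in each class, and by 2470 of 13771, 1819 of 13094 and 1846 of 14570 genes tested. At the 3 later stages none of 45 combinations was called by edgeR or by DESeq2.

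Nfic in Sox2-detected cells at E12.5 was 12.2, 8.46, 9.99 and 10.5 CPM in WT pairs M1, M2, F1 and F2, and 5.62, 6.79, 5.51 and 6.27 CPM in their het partners. The groups did not overlap, het was lower in 4 of 4 pairs, and the difference was -0.74 (SE 0.10, adjusted p = 0.000863), or 1.68-fold lower. Nfix in the same cells was 86.1, 67.2, 72.5 and 72.1 CPM in WT and 41.5, 57.3, 40.6 and 47.4 CPM in het, again without overlap (-0.67, SE 0.15, adjusted p = 0.0352). In Eomes-detected cells Nfix was 122, 92.3, 106 and 97.2 CPM in WT and 58.2, 74.3, 43.8 and 75.2 CPM in het (-0.71, SE 0.16, adjusted p = 0.0454). In Neurod6-detected cells its WT values of 173, 115, 135 and 119 CPM also lay above the het values of 86.8, 93.0, 77.9 and 113 CPM, and the difference of -0.55 was not called (adjusted p = 0.106).

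The remaining E12.5 differences were not called. Those of Nfib were -0.48, -0.36 and -0.29 in Sox2-, Eomes- and Neurod6-detected cells (adjusted p = 0.0727, 0.204 and 0.316), and those of Zbtb20 -0.50, -0.44 and -0.51 (adjusted p = 0.141, 0.166 and 0.236). Nfic was -0.41 and -0.50 in Eomes- and Neurod6-detected cells (adjusted p = 0.2 and 0.118). Het lay below WT without overlap for Nfib in Sox2- and Eomes-detected cells and for Nfic in Neurod6-detected cells. The share of all genes without overlap at E12.5 was not counted. The lack of overlap, here and for Nfic and Nfix above, therefore says nothing particular of these genes. Nfib in Sox2-detected cells was called with DESeq2 (-0.45, adjusted p = 0.0227), which called 952 genes there. By edgeR it was called in Sox2-only cells (-0.47, adjusted p = 0.0436), as were 130 genes, and without the 3 E17.5 libraries that stood apart (-0.48, adjusted p = 0.0264), as were 582. Nfia alone was positive, at 0.27, 0.34 and 0.48 (adjusted p = 0.438, 0.468 and 0.418), with a het spread of 143 to 357 CPM in Sox2-detected cells that covered the WT range of 163 to 246 CPM. In a fit that blocked on the pair, as the litter pairing in the labels allows, 7 combinations were called, which added Nfib in Sox2-detected (-0.49, adjusted p = 0.0115) and Eomes-detected cells (-0.39, adjusted p = 0.0354), Zbtb20 in Sox2-detected cells (-0.54, adjusted p = 0.0453) and Nfix in Neurod6-detected cells (-0.55, adjusted p = 0.0289). That fit called 14.6%, 4.84% and 4.08% of all genes in Sox2-, Eomes- and Neurod6-detected cells. Several pairs of a stage share the prefix of their library codes, whose meaning the labels do not give, and the block treats each pair as separate.

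The pairs did not contribute alike. The het to WT ratio of Nfic in Sox2-detected cells was 0.462 in M1, 0.552 in F1 and 0.597 in F2, and 0.803 in M2. For Nfix there it was 0.482, 0.560 and 0.657 in M1, F1 and F2, and 0.853 in M2. For Zbtb20 it was 0.426, 0.463 and 0.815 in those 3 pairs and 1.31 in M2. For Nfia it was 1.06, 1.68 and 1.17 in the 3 pairs and 0.876 in M2. In Neurod6-detected cells, though, the Nfix ratio was higher in F2 (0.947) than in M2 (0.806). In Sox2-detected cells M1, F1 and F2 had the lower ratios for Nfic, Nfix and Zbtb20 and the higher ratios for Nfia. These are the pairs whose het libraries stood apart and were shallower. The WT and het libraries of these 3 pairs share 1 prefix in their library codes and those of M2 share another, so each ratio is taken within a prefix. The contrast between M2 and the 3 pairs, though, cannot be told apart from whatever the code stands for. Without those 3 het libraries, 0 combinations were called by edgeR, and 1, 0 and 1 of all genes in Sox2-, Eomes- and Neurod6-detected cells, so the count says little of these genes and the values are given for their size. Nfic in Sox2-detected cells was -0.61 (adjusted p = 0.942), Nfix -0.39 there and -0.48 in Eomes-detected cells (both with adjusted p = 1), the sign of Nfia turned in all 3 classes (-0.61, -0.78 and -0.95), and that of Zbtb20 turned in Sox2-detected (0.12) and Neurod6-detected cells (0.04). That fit has 1 het library at E12.5, het M2, assumed to vary like the other groups.

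**Figure D4:**
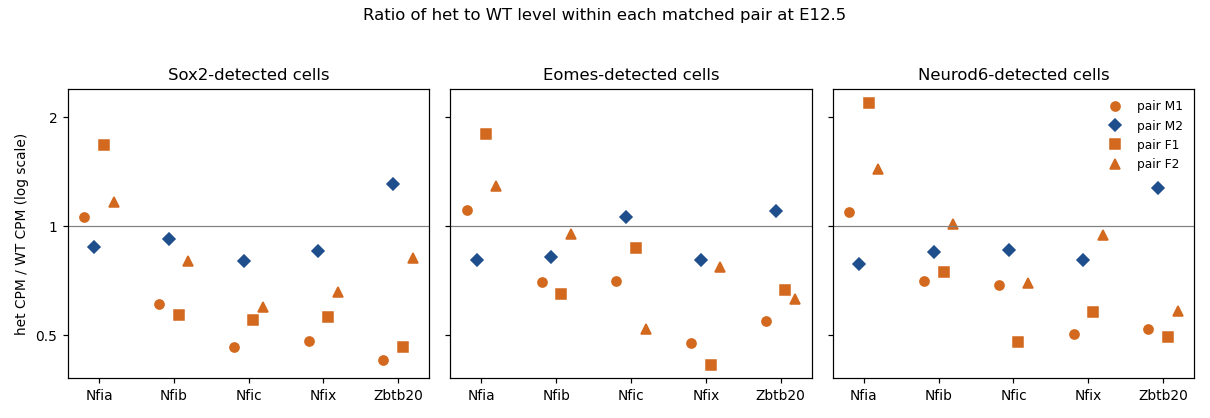
Ratio of het to WT level in each matched pair at E12.5 (log axis, line at 1), for the 5 genes in Sox2-, Eomes- and Neurod6-detected cells. Pair M2 is in blue, because its het library did not stand apart, and the other 3 pairs are in orange. The ratios of Nfix lie under 1 in all pairs and classes, while for Nfia and Zbtb20 M2 lies on the other side of 1 from most of the orange points.

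Other single libraries mattered too. Without het M2 of E12.5, 12 combinations were called, among them Nfia higher (0.47, 0.56 and 0.75) and Zbtb20 lower (-0.81, -0.68 and -0.81) in each of the 3 classes, while 13.5%, 9.23% and 9.66% of all genes were called in that fit. Nfix in Sox2-detected cells was not called without WT M1, F1 or F2 or het M1, F1 or F2 of E12.5, each left out alone (-0.68 to -0.59, adjusted p = 0.0642 to 0.224). Nfix in Eomes-detected cells was lost in 31 of 43 alternatives, with a highest adjusted p of 0.2995 when 1 library was left out (het F1 of E12.5). In the calls lost with 1 library left out the difference was -0.80 to -0.59, beside -0.71 in the main fit. Nfic in Sox2-detected cells was called whichever library was left out, and was lost with each stage fitted alone (-0.74, adjusted p = 0.155) and with cells thinned to 2000 UMIs (-0.60, adjusted p = 0.0511). Markers of medial tissue differed as well at E12.5: the summed level of 6 markers of the cortical hem and hippocampal primordium in Sox2-detected cells was 25.8 to 105 CPM in WT and 13.8 to 20.7 CPM in het, with Wnt3a at 0 in het. It was 25.4 to 127 and 12.02 to 20.9 CPM in Eomes-detected and 25.8 to 114 and 16.8 to 22.4 CPM in Neurod6-detected cells. The part of this difference in the results on Nfic, Nfix and Zbtb20 was not tested.

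After E12.5 the het to WT differences of the 5 genes lay between -0.16 and 0.20 in the 3 classes, none reached an unadjusted p under 0.05 by edgeR, and the lowest adjusted p was 0.922. Over all genes, 0%, 0.0218% and 0% were called in Sox2-detected cells at these stages, 0%, 0.00764% and 0% in Eomes-detected cells, and 0% at each in Neurod6-detected cells. Where edgeR called no gene, 172 to 794 genes of the 13094 to 14570 tested in a class had an unadjusted p under 0.05, and DESeq2 called at most 3. The edgeR fit left out the pairing of the libraries, so the lack of a call does not show that a difference is absent. At E17.5, for example, Zbtb20 in Sox2-detected cells was 803, 610, 519 and 547 CPM in WT and 726, 622, 757 and 515 CPM in het, which overlap almost wholly.

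Averaged over the 4 stages, Nfic in Sox2-detected cells was the 1 combination called of 15 (-0.22, SE 0.05, adjusted p = 0.0439, lower in 11 of 16 pairs), against 0.465%, 0.298% and 0.22% of all genes in the 3 classes. It was lost in 30 of 42 alternatives, at -0.22 to -0.15, with an adjusted p of up to 0.52. A test of whether the genotype difference varied with stage called 0 of 15 combinations by edgeR and by DESeq2. Of all genes, edgeR called 0% in each of the 3 classes (542 to 777 genes had an unadjusted p under 0.05), and DESeq2 called 3 in Sox2-detected, 1 in Eomes-detected and 0 in Neurod6-detected cells. By edgeR, 3, 1 and 1 of the 5 genes had an unadjusted p under 0.05 in Sox2-, Eomes- and Neurod6-detected cells. The lowest adjusted p was 0.319, for Nfic in Sox2-detected cells. So the difference at E12.5 was not shown to differ from that at later stages. Without het M2 of E12.5 that test called 2 combinations, and without WT M2 of E12.5 it called 1. The share of all genes called in those fits is not given here, so these counts say nothing particular of the 5 genes.

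To see what else moved in the pathways around these genes, 2 lists were counted. The first holds 20 glial and radial glia genes linked to nuclear factor I in the literature, read in Sox2-detected WT cells from E12.5 to E17.5. Of the 20, 12 rose, 5 fell and 3 (S100b, Bbx and Apcdd1) were not called, against 30.4% of all genes called higher and 29.1% lower. Their median log2 change was 1.61, beside 0.01 for all genes. Tnc, an extracellular matrix protein of radial glia and astrocytes, was at 0.108 ± 0.0937 CPM at E12.5 and 115 ± 12.4 CPM at E17.5 (n = 4), and Aldh1l1, a folate enzyme used as an astrocyte marker, was at 0.204 ± 0.0715 and 42.2 ± 15.004 CPM. Sparcl1, a matrix protein secreted by astrocytes, rose by 4.48 (SE 0.30, adjusted p = 1.51e-13). The 5 that fell were Hes1, a Notch target that holds progenitors undifferentiated (-2.22, SE 0.27), Ttyh1, a membrane protein of radial glia (-1.16, SE 0.12), Ezh2, a histone methyltransferase (-0.64, SE 0.16), Hes5, another Notch target (-0.51), and Sox9, a factor of radial glia and glial fate (-0.43). Other radial glia genes of the list rose, among them Fabp7 (2.55, SE 0.15), Slc1a3 (1.79, SE 0.16), Id3 (1.46, SE 0.31) and Hopx (1.27, SE 0.22), named here after their values were seen. Over the same period the share of Sox2-detected cells with interneuron markers went from 1.28% to 22.1% and that with oligodendrocyte-lineage markers from 0.166% to 11.6%, and their part in these changes was not tested. In het against WT at E12.5, 1 of the 20 was called, Apcdd1, lower, against 0.595% of all genes called in either direction (82 genes, and 1 without the 3 het libraries that stood apart).

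The second list holds 11 genes that Zbtb20 is known to repress in the hippocampus, read in Neurod6-detected WT cells. While Zbtb20 rose 7.28-fold there, 7 of the 11 rose, 3 fell and 1 (Tle4) was not called, against 31.8% of all genes called higher and 28.1% lower, and their median log2 change was 0.81 beside 0.04. Mef2c, a transcription factor of maturing neurons, rose by 3.79 (SE 0.40) to a widely spread 486 ± 286 CPM, and Cux2, of upper layers, by 2.95 (SE 0.26). The 3 that fell were Fezf2, which specifies subcortical projection neurons (-2.05, SE 0.22), Zfpm2, a cofactor of deep-layer neurons (-1.88, SE 0.38), and Tbr1, a factor of early-born neurons (-1.62, SE 0.17). Foxp2 (0.64, SE 0.22, adjusted p = 0.0135) and Sox5 (0.81, SE 0.26, adjusted p = 0.00973), also genes of deep-layer neurons and named here after their values were seen, rose. None of the 11 was called in het against WT at E12.5 by edgeR, where 0.00686% of all genes were, so that count says nothing of the list.

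Across the 12 WT means (4 stages in Sox2-only, Eomes-only and Neurod6-only cells, which share libraries), and over 6310 genes with a WT mean of at least 20 CPM, the gene whose course was most like that of Zbtb20 was Pou2f1 (Pearson's r of 0.98, and 0.99 over the 12 het means). Clip3 was closest to Nfix (0.98, and 0.99 in het), Fam210b to Nfic (0.98 and 0.94), Xpr1 to Nfib (0.98 and 0.94) and Slc35b1 to Nfia (0.92 and 0.76). Among the 5 themselves, the pairs most alike were Nfic and Zbtb20 (0.97, and 0.94 in het) and Nfib and Nfix (0.90, and 0.94 in het), while Nfia and Zbtb20 ran apart (-0.40, and -0.32 in het). These are descriptions over points that are not independent.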

How the data were processed

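The authors deposited, for each of the 32 libraries, UMI counts per gene and barcode, whole numbers that were not normalised. The submitters' processing notes name build mm10, STAR 2.7.9a, STARsolo and Cell Ranger, with no roles given. The members and gene lists were chosen with earlier results of these data known. A barcode was retained if it had no fewer than 1000 UMIs and 500 genes and no more than 10% of UMIs from mitochondrial genes (143697 of 145082), and 5471 likely doublets were removed by a neighbour score at an assumed 0.8% per 1000 cells. Counts were summed per library and class and tested in R 4.3.3 with edgeR 4.0.16 (TMM scaling, filterByExpr, quasi-likelihood F test, Benjamini-Hochberg adjustment over all genes tested), all groups in 1 fit. A standard error is the size of the log2 change divided by the square root of F. DESeq2 1.42.0 was an alternative. The code was tested on simulated counts. Contrasts between cells of the same library used the library as a block.

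The labels pair WT and het by litter and sex. Deviations from group means correlated above 0.1 in 15 of 16 pairs for Sox2-detected (0.073 to 0.86), 15 of 16 for Eomes-detected (-0.0039 to 0.85) and 16 of 16 for Neurod6-detected sums (0.13 to 0.91). The fit without the pair was the main one, and the paired fit is given where it changes a call. Named list genes are the 3 with the largest called change in each direction at a mean log2 CPM of at least 3. One gene that this rule picks is not reported here. Positions and exons come from GENCODE M21, in which 99.6% of the gene identifiers were found. Free RNA was not modelled. P-values of the stage and genotype tests measure the spread between these embryos. With the library as a block, they measure how the differences within a library vary between these libraries.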

Additional observations from a re-analysis of the deposited data

Results flagged for a closer look

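Of 120 groups of 4 libraries (5 genes, 3 classes, 8 groups), 7 held a library set off from the other 3 by Dixon's gap test at its 95% level, where chance gives about 1 in 20. Pair F1 of the WT group at E14.5 had more Nfia than the others, 408 CPM against 264 to 282 CPM in Eomes-detected cells and 696 CPM against 394 to 404 CPM in Neurod6-detected cells. At E12.5, WT M1 had more Nfib in Eomes-detected cells (732 CPM against 578 to 599 CPM), and het M2 had more Zbtb20 there (59.2 CPM against 38.0 to 40.7 CPM). At E14.5, het F1 had more Zbtb20 in Neurod6-detected cells (136 CPM against 95.2 to 97.6 CPM). For Nfic, het F1 at E16.0 was low in Sox2-detected cells (39.5 CPM against 44.1 to 45.0 CPM), and WT M2 at E14.5 was at 15.7 CPM in Neurod6-detected cells against 15.9 CPM in each of the other 3, a gap of no practical size.

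For 4 genes the change from E12.5 to E17.5 differed between Neurod6-only and Sox2-only cells by a test of the difference itself: by -2.21 for Nfia, -0.57 for Zbtb20, -0.30 for Nfib and 0.49 for Nfix on the log2 scale.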

How the results depend on the processing

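The counts of member results called at the WT steps to E14.5 and E16.0 (12 and 6 of 15) were the same whichever library was left out, while that at the step to E17.5 ranged from 3 to 6 and that over the whole period from 13 to 14. For het against WT at E12.5 the count of 3 became 5 with DESeq2, 7 with the matched pair as replicate block, 1 with cells thinned to 2000 UMIs, and 0 with each stage fitted alone or without the 3 het libraries that stood apart (chosen after seeing the data), and it ranged from 1 to 12 without 1 library. At the later stages it stayed 0. The count of 1 averaged over stages became 0 with no filter on low counts, other-type cells out, at least 2 marker UMIs, exactly 1 class marker, thinned cells or without the 3 libraries, and ranged from 0 to 1. The interaction count of 0 became 1 with exactly 1 class marker, where the test called 1 of all genes in Sox2-only cells. It ranged from 0 to 2 without 1 library, and the share of all genes called in those fits is not given here. Between classes, 4 of 10 at E12.5 became 9 with each cell given to the marker with most UMIs, and leaving out libraries gave 4 to 6, 6 to 8, 9 and 6 at the 4 stages. With that classing the Eomes cells at E12.5 numbered 2419 in place of 918. The share of all genes called with it is not given here, so the rise to 9 says nothing particular of the 5 genes. The Cux comparison at E17.5 fell from 2 to 1 with DESeq2 or with no replicate block, and ranged from 1 to 2, while leaving out libraries kept 5 and 4 at E14.5 and E16.0, 4 for the change by class and 5 for cycling cells (16 of the 32 libraries tried, those of E12.5 and E17.5). Beside the reversals without the 3 libraries (Nfia -0.61, -0.78 and -0.95, Zbtb20 0.12 and 0.041), Nfia in Eomes-detected cells was -0.18 with exactly 1 class marker. The cause of these changes was not tested. Called member results kept their side of the threshold in 644 of their alternatives and lost it in 36, and in 1656 and 64 of those leaving out 1 library, and no called result changed direction. Over all genes, those called for het against WT at E12.5 numbered 82, 48 and 1 in the 3 classes, 952, 456 and 354 with DESeq2, 2087, 658 and 615 with the pair block, and 0 in each with the stage alone. Depth limits Nfic most, which rests on as few as 0 UMIs in an Eomes-only library.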

Other observations

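The 5 genes were also read in cells with none of the 3 class markers that carried markers of other cell types. These levels are pooled over libraries and have no replicate check. In interneuron-marker cells (117, 314, 469 and 982 cells at the 4 stages), which migrate into the cortex from the ventral telencephalon, Zbtb20 was at 59.3, 104, 326 and 432 CPM. Nfib went from 44.9 and 81.5 to 272 and 556 CPM in the same cells, and Nfix from 5.79 and 10.0 to 68.5 and 198 CPM, so the levels at E12.5 and E14.5 were low beside those at E16.0 and E17.5. At E12.5 and E14.5 Nfix rested on only 4 and 15 UMIs in these cells, and Nfib on 31 and 122. Nfia stayed between 32.1 and 87.2 CPM there.

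In Cajal-Retzius-marker cells, early neurons of the cortical surface (129, 104, 78 and 170 cells), Nfix was at 238, 577, 642 and 443 CPM and Nfib at 487, 1409, 1509 and 946 CPM. Zbtb20 was at 83.3, 159, 322 and 308 CPM. The 104 cells with oligodendrocyte-lineage markers at E17.5 had Nfia at 333 CPM, Nfib at 399.9 CPM, Nfix at 164 CPM and Zbtb20 at 305 CPM. Nfic was at 48.7 CPM in microglia-marker cells at E16.0 and 46.2 CPM at E17.5 (32 and 19 UMIs), and at 41.7, 73.7 and 69.4 CPM in endothelial-marker cells at E12.5, E16.0 and E17.5. Of those endothelial-marker cells, 9.26%, 48.2% and 30.8% also carried pericyte markers at these stages. In pericyte-marker cells Nfic was between 48.7 and 78.7 CPM over the 4 stages. The lowest was at E12.5, where 88.0% of the 133 cells also carried meninges markers.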
